A study of Mus musculus with 10 samples.

Results

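The genes described here are the corticosteroid receptors and a set of glucocorticoid-responsive genes in the mouse hippocampus. They were chosen by name, as the rows of the value table whose platform annotation carried the symbol of a listed gene. Of 10 listed genes, 9 had a row of their own, out of 19938 genes with 1 symbol and 23410 annotated rows (transcript clusters) on the array. The remaining gene, Cdkn1a, which encodes the cyclin-dependent kinase inhibitor p21, shared its only row with a second symbol, so no value is given for it. Each of the 9 genes had exactly 1 transcript cluster, so no choice between rows was needed.

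The groups were 5 Tg(Dyrk1a) mice, which carry Dyrk1a on a bacterial artificial chromosome (BAC) transgene in addition to the native gene, and 5 wild-type littermates. All were males of 16 weeks on a background labelled C57BL/6N, whereas the study's methods describe moving its lines onto C57BL/6J. The study describes this line as having an additional copy of Dyrk1a. The other sequence on the BAC is not given in the sources used here. Total RNA of the whole hippocampus, right and left, of each mouse was hybridised to 1 Affymetrix whole-transcript mouse gene array, and per the labels the mice of a genotype are biological replicates. The time of day at which the tissue was taken is not given in the sources used here.

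In the brain, corticosterone acts through 2 nuclear receptors. The mineralocorticoid receptor binds it with high affinity and is abundant in hippocampal neurons, while the glucocorticoid receptor has a lower affinity and is engaged when the hormone rises with stress or with the daily rhythm. An activated receptor enters the nucleus and binds glucocorticoid response elements, which raises the transcription of a common set of targets that are often used as a readout of hormone exposure. The comparison between genotypes asks whether this readout differs where the Down syndrome candidate kinase gene Dyrk1a is in excess, and the covariation across mice asks whether the members move together from mouse to mouse.

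The response element that the receptors bind is an imperfect palindrome, and 1 arm of it was searched here as the 6 letters TGTTCT or its reverse complement AGAACA, on both strands, which come to the same search. The full palindrome was searched as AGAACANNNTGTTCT, so that each palindrome holds 2 arms, 1 of each orientation. RefSeq promoters of build GRCm38.p6, each 300 bases long with 250 before the transcription start, were found for 7 of the 9 genes (15 promoters). They were not found in the table for Nr3c1 and Zbtb16. At least 1 arm lay in 4 of the 15 promoters, which belong to 2 genes, Sgk1 and Tsc22d3, against 6233 of the 32851 promoters of the whole table (18.97%). The palindrome lay in 1 of the 15, an Sgk1 promoter, and in 3 of all 32851. The 2 promoters below are shown because they hold the palindrome and the only arm of the gene that leads the covariation described further on, with the arms in capitals. The Sgk1 promoter is chr10:21993640-21993939 on the plus strand, with the arms of the palindrome beginning at positions -189 and -180 relative to the start, and the Tsc22d3 promoter is chrX:140600473-140600772 on the minus strand, with its arm beginning at position -185.
Sgk1: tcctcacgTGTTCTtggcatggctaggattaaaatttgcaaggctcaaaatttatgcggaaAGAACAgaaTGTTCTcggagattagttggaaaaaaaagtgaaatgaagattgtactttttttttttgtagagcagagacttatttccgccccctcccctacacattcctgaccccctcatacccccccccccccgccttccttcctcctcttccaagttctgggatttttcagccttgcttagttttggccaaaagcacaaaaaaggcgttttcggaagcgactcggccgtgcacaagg
Tsc22d3: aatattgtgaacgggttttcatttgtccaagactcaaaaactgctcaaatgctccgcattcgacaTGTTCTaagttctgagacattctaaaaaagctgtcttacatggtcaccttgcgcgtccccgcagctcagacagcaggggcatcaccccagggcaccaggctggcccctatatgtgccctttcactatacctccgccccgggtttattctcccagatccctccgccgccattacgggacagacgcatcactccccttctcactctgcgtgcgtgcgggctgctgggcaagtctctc

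A match of letters is a description of the sequence, not a measured binding site. In the 11 other promoters, those of Hsd11b1, Fkbp5, Errfi1, Nr3c2 and Plin4 among them, these letters were not in the window. Sgk1 has 6 listed starts and Tsc22d3 has 3, and the array gives 1 value for the gene over all of them.

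None of the 9 genes differed between Tg(Dyrk1a) and wild-type hippocampus beyond the spread between mice. The estimated changes were small and mixed in direction, with 4 genes higher and 5 lower in Tg(Dyrk1a) mice, and the estimate of largest size was that of Fkbp5, which encodes the receptor cochaperone FKBP51, at 1.07-fold with a 95% interval of 0.943 to 1.21. That order depended on single mice. Without Tg(Dyrk1a) replicate 2 the log2 fold change of Fkbp5 was 0.03, against -0.08 for Sgk1 and -0.07 for Tsc22d3. Without wild-type replicate 1 it was 0.11, against 0.13 for Zbtb16, and without wild-type replicate 4 it was 0.08, against -0.10 for Plin4. Without Tg(Dyrk1a) replicate 5 it was 0.06, against -0.07 for Tsc22d3. With limma and Benjamini-Hochberg adjustment over 23410 transcript clusters, 0 of 9 genes passed an adjusted p of 0.05 (0.00854% of all transcript clusters did), and 0 of 9 had an unadjusted p under 0.05 (4.93% of all). The 2 groups of mice overlapped for every gene, so that 0 of 9 had groups apart (0.807% of all), and 0 of 9 were called by FCROS, the rank method of the study, as rewritten here (4.83% of all). The median log2 fold change of the 9 genes was -0.03, against 0.00104 over all transcript clusters, and the median size of the change was 0.05, against 0.03. Across the 9 genes the 95% intervals stretched from -0.22 to 0.28 on the log2 scale, which is 0.856-fold to 1.21-fold. In whole tissue, fewer cells of a type that expresses a gene and less RNA per cell cannot be told apart.

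The genotype labels were checked with Dyrk1a itself. Its log2 signal was 11.65, 11.62, 11.67, 11.65 and 11.68 in Tg(Dyrk1a) mice and 11.28, 11.15, 11.14, 11.19 and 11.15 in wild-type mice. The groups did not overlap, and the difference was 0.47 ± 0.03 (limma standard error), or 1.38-fold (limma adjusted p = 0.000138). The median log2 signal per array was 6.57 to 6.66, and any pair of arrays correlated at r = 0.994 to 0.998 over all rows. The number of arrays limits the precision. Markers of the choroid plexus, a secretory tissue inside the ventricles beside the hippocampus, stood apart in 3 arrays, which are Tg(Dyrk1a) replicates 2 and 4 and wild-type replicate 5. The score of the 14 measured choroid plexus markers (their mean log2 deviation from the average over the 10 arrays) was 1.13, 0.81 and 1.11 there, and between -0.68 and 0.01 in the other 7 arrays. Wild-type replicate 5 also had the highest score of 14 thalamus markers, at 0.38, with 0.03 as the next highest.

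**Figure D1:**
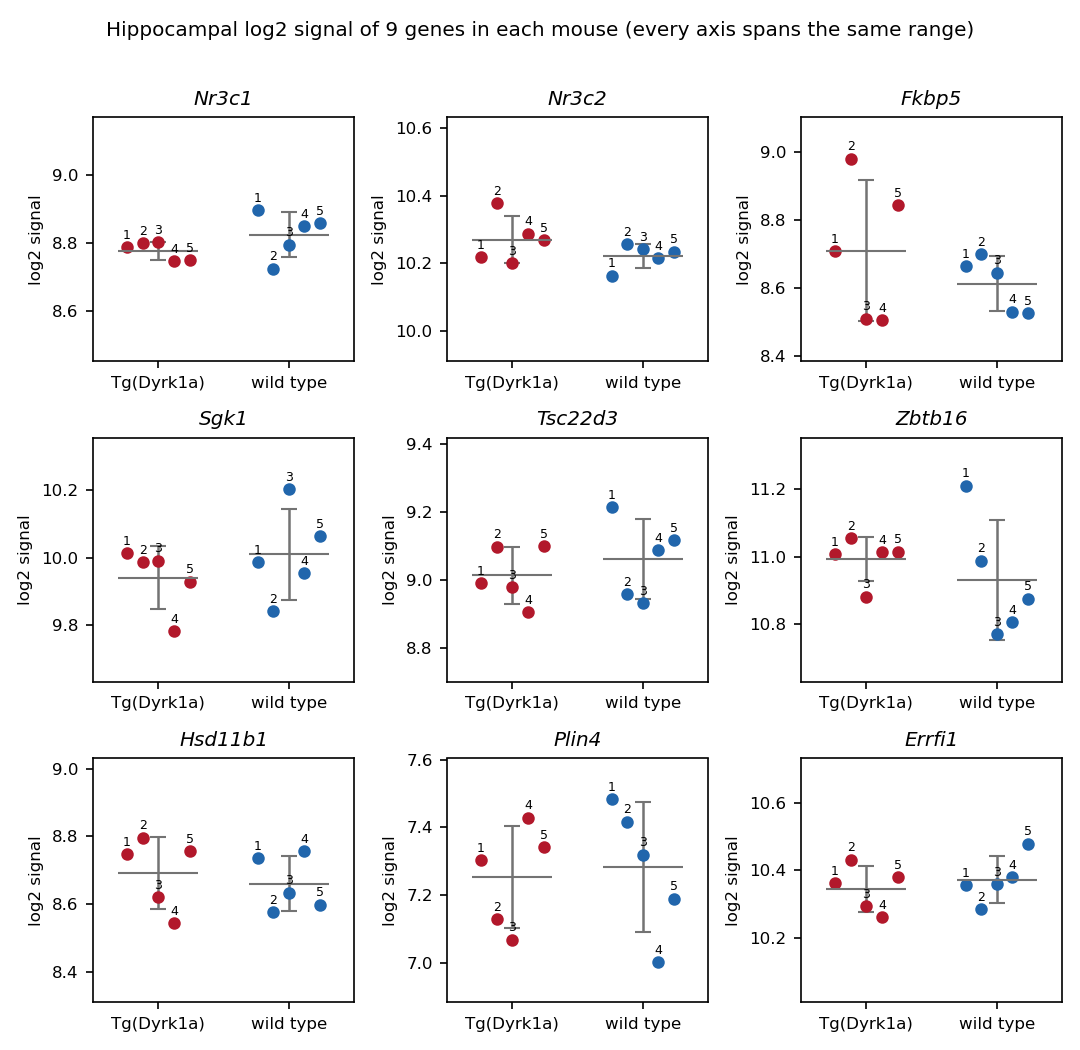
Log2 signal (RMA, vertical axes, all spanning the same range) of the 9 genes in each mouse, with Tg(Dyrk1a) on the left and wild type on the right of each panel. Points are single mice with their replicate number, and the grey bars are the mean ± SD of 5 mice. The groups overlap in every panel, and Fkbp5 spans 8.50 to 8.98 in Tg(Dyrk1a) mice against 8.53 to 8.70 in wild-type mice.

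Both receptors lay within a tight range. Nr3c1 (chr18:39410545-39519421, GRCm38.p6), which encodes the glucocorticoid receptor, had log2 signals of 8.79, 8.80, 8.80, 8.75 and 8.75 in Tg(Dyrk1a) mice and 8.90, 8.72, 8.79, 8.85 and 8.86 in wild-type mice. All 5 Tg(Dyrk1a) values lay below the wild-type mean of 8.82, but wild-type replicate 2 lay below all of them, so the groups overlapped. The difference was -0.05 ± 0.04, or 0.967-fold with a 95% interval of 0.916 to 1.02 (limma adjusted p = 0.952; exact two-sided permutation test of the difference of means, p = 0.198, where the smallest p the design allows is 0.00794). Without wild-type replicate 2 the difference became -0.07, with an adjusted p of 0.998 in limma.

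Nr3c2 (chr8:76898083-77245012) encodes the mineralocorticoid receptor. The log2 signal of Nr3c2 was 10.22, 10.38, 10.20, 10.29 and 10.27 in Tg(Dyrk1a) mice and 10.16, 10.26, 10.24, 10.21 and 10.23 in wild-type mice. The highest value was that of Tg(Dyrk1a) replicate 2 and the lowest that of wild-type replicate 1, with the other 8 intermixed. The difference was 0.05 ± 0.04, or 1.03-fold with an interval of 0.977 to 1.09 (limma adjusted p = 0.952, exact permutation p = 0.238). Against all transcript clusters, both receptors were among the steadier from mouse to mouse. The SD within genotype was 0.05 for Nr3c1 and 0.06 for Nr3c2, and 23.9% and 29.3% of transcript clusters had a smaller one.

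Hsd11b1 (chr1:193221640-193264045) encodes the reductase that regenerates active corticosterone from its inert form inside cells. Log2 signals of Hsd11b1 were 8.75, 8.80, 8.62, 8.54 and 8.76 in Tg(Dyrk1a) mice and 8.74, 8.58, 8.63, 8.76 and 8.60 in wild-type mice. In each genotype the mice fell towards the upper or the lower end of the range, and the wild-type values lay inside the range of the Tg(Dyrk1a) values. The difference was 0.03 ± 0.05, with an interval of -0.09 to 0.15 (limma adjusted p = 0.976, exact permutation p = 0.635).

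Fkbp5 (chr17:28398753-28486149) is induced by the glucocorticoid receptor, and its product lowers the affinity of that receptor for hormone. Its log2 signal was 8.71, 8.98, 8.51, 8.50 and 8.84 in Tg(Dyrk1a) mice and 8.66, 8.70, 8.65, 8.53 and 8.53 in wild-type mice. Tg(Dyrk1a) mice held both the highest and the lowest values, at replicates 2 and 4, and the SD was 0.21 in Tg(Dyrk1a) mice against 0.08 in wild-type mice (n = 5 each). The choroid plexus score was high in both of those replicates, and its part in these values was not tested. The difference of means was 0.10 ± 0.08, with an interval of -0.09 to 0.28 (limma adjusted p = 0.953, exact permutation p = 0.373). Leaving out Tg(Dyrk1a) replicate 2 gave 0.03, and leaving out Tg(Dyrk1a) replicate 3 or 4 gave 0.15, with adjusted p values of 0.831 or more in limma. Without the 3 choroid-high arrays the difference was 0.05 ± 0.07 (limma adjusted p = 0.952).

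Sgk1 (chr10:21882184-21999903) encodes a kinase that regulates ion channels and transporters and is a target of both receptors. Its log2 signal was 10.01, 9.99, 9.99, 9.78 and 9.93 in Tg(Dyrk1a) mice and 9.99, 9.84, 10.20, 9.95 and 10.06 in wild-type mice. Wild-type replicate 3 was highest and Tg(Dyrk1a) replicate 4 lowest. The difference was -0.07 ± 0.06, with an interval of -0.21 to 0.07 (limma adjusted p = 0.956, exact permutation p = 0.381).

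Tsc22d3 (chrX:140539528-140600522) encodes the leucine zipper protein GILZ, a mediator of the anti-inflammatory action of glucocorticoids. On the log2 scale it gave 8.99, 9.10, 8.98, 8.90 and 9.10 in Tg(Dyrk1a) mice and 9.21, 8.96, 8.93, 9.09 and 9.12 in wild-type mice. Wild-type replicate 1 stood highest, and Tg(Dyrk1a) replicate 4 and wild-type replicate 3 lowest. The difference was -0.05 ± 0.06, with an interval of -0.17 to 0.08 (limma adjusted p = 0.969, exact permutation p = 0.5).

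Zbtb16 (chr9:48651797-48836225) encodes the zinc finger transcription factor PLZF. Its log2 signal was 11.01, 11.05, 10.88, 11.01 and 11.01 in Tg(Dyrk1a) mice and 11.21, 10.99, 10.77, 10.81 and 10.88 in wild-type mice. Of the Tg(Dyrk1a) mice, 4 of 5 lay above the wild-type mean of 10.93, while the highest value of all came from wild-type replicate 1. The difference was 0.06 ± 0.07, with an interval of -0.09 to 0.22 (limma adjusted p = 0.967, exact permutation p = 0.429). Without wild-type replicate 1 it was 0.13 ± 0.05, and the adjusted p in limma was 1.00.

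Plin4 (chr17:56100587-56109948), which encodes a lipid droplet coat protein, had log2 signals of 7.30, 7.13, 7.07, 7.43 and 7.34 in Tg(Dyrk1a) mice and 7.48, 7.42, 7.32, 7.00 and 7.19 in wild-type mice. The values were spread over the same range in both genotypes, with the highest and the lowest both in wild-type mice. The difference was -0.03 ± 0.09, with an interval of -0.22 to 0.17 (limma adjusted p = 0.983, exact permutation p = 0.778), and its sign changed when any 1 of 4 single arrays was left out (Tg(Dyrk1a) replicate 2 or 3, wild-type replicate 1 or 2).

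Errfi1 (chr4:150853796-150868889) encodes an inhibitor of the epidermal growth factor receptor. The log2 values were 10.36, 10.43, 10.29, 10.26 and 10.38 in Tg(Dyrk1a) mice and 10.36, 10.29, 10.36, 10.38 and 10.48 in wild-type mice. Wild-type replicate 5 was highest and Tg(Dyrk1a) replicate 4 lowest. The difference was -0.03 ± 0.04, with an interval of -0.12 to 0.07 (limma adjusted p = 0.976, exact permutation p = 0.563).

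**Figure D2:**
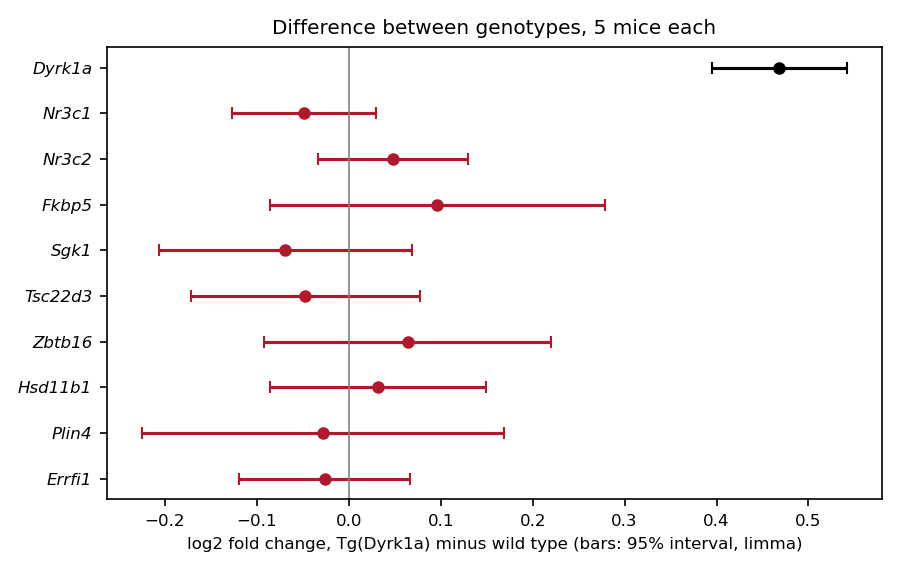
Log2 fold change of Tg(Dyrk1a) over wild type (horizontal axis) for Dyrk1a and the 9 genes (rows), with 95% intervals from limma on 5 mice of each genotype. The interval of every one of the 9 genes includes 0, and the most extreme bounds are -0.22 for Plin4 and 0.28 for Fkbp5, whereas Dyrk1a sits at 0.47.

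The responsive genes varied more between mice of a genotype than most transcript clusters on the array did. The median SD within genotype was 0.10 for the 9 genes against 0.07 over all transcript clusters. Plin4 had a larger SD than 97.5% of transcript clusters, Fkbp5 than 96.5%, Zbtb16 than 93.2%, Sgk1 than 88.0%, Tsc22d3 than 81.4% and Hsd11b1 than 76.2%. Plin4 was also the dimmest of the 9 genes. Its mean signal lay above that of 49.7% of transcript clusters, against 70.6% for Fkbp5, the next dimmest. The part of the dim signal in the spread of Plin4 was not tested. Errfi1 was near the middle, at 47.7%.

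The mice at the ends of these ranges were often the same ones. Tg(Dyrk1a) replicate 2 was the highest of its genotype for 5 genes (Nr3c2, Fkbp5, Zbtb16, Hsd11b1 and Errfi1) and the lowest for 0. Tg(Dyrk1a) replicate 4 was the lowest of its genotype for 6 genes (Nr3c1, Fkbp5, Sgk1, Tsc22d3, Hsd11b1 and Errfi1) and the highest for Plin4 alone. Among wild-type mice, replicate 1 was the highest for 4 genes (Nr3c1, Tsc22d3, Zbtb16 and Plin4) and the lowest for Nr3c2, and replicate 2 was the lowest for 4 (Nr3c1, Sgk1, Hsd11b1 and Errfi1) and the highest for Nr3c2 and Fkbp5. Tg(Dyrk1a) replicates 2 and 4, which stood at opposite ends, were both high in choroid plexus markers, and the part of those markers was not tested.

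**Figure D3:**
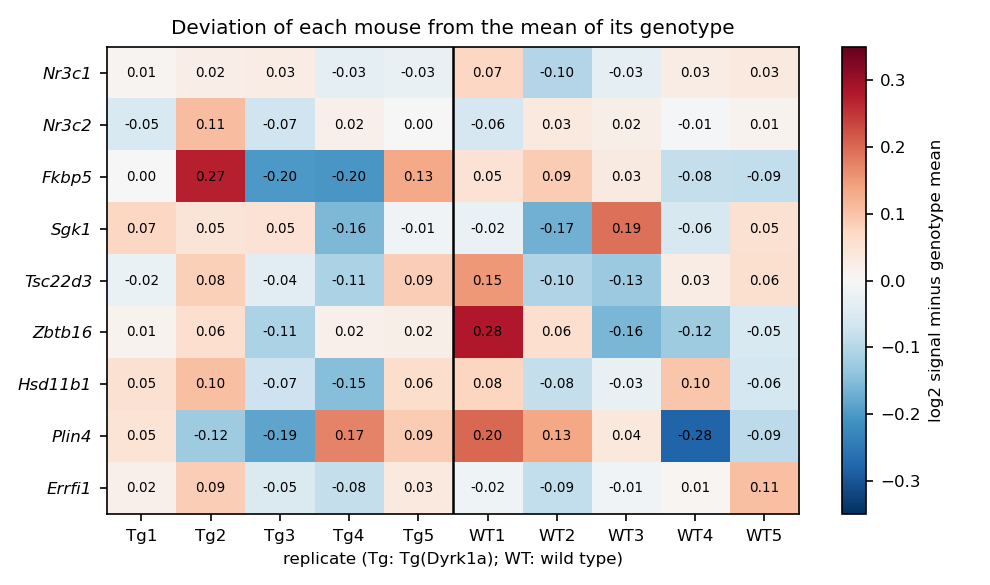
Log2 signal of each mouse minus the mean of its genotype (colour and printed value) for the 9 genes (rows) in the 10 mice (columns, Tg(Dyrk1a) left of the line and wild type right of it). In Tg(Dyrk1a) replicate 2, 8 of 9 genes lie above the mean of the genotype, all but Plin4, and in replicate 4 of that genotype 6 of 9 lie below it.

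Covariation was measured for the 36 pairs of the 9 genes as Pearson's r over the 10 arrays after the mean of each genotype had been removed, with an exact two-sided permutation of mice within genotype (14400 orders). More pairs had a positive than a negative r in these mice, but no pair passed the adjustment. Of the 36 pairs, 23 had a positive r and 13 a negative one, and the median r was 0.23, against 0.02 between the members and all genes. The median size of r was 0.364, against 0.268. At an unadjusted p under 0.05 there were 2 pairs by Pearson's r and 2 by Spearman's rho, and after Benjamini-Hochberg adjustment over the 36 pairs 0 by either (smallest adjusted p = 0.550 for r and 0.456 for rho).

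The highest r values met at Tsc22d3. Its pair with Hsd11b1 had r = 0.71 (exact permutation p = 0.0299, adjusted p = 0.550) and rho = 0.70 (exact permutation p = 0.0415, adjusted p = 0.456), and r was 0.62 to 0.81 when each array was left out in turn. Leaving out the arrays farthest from the median of Tsc22d3, wild-type replicates 1 and 3, gave r = 0.75 (exact permutation p = 0.0556), and leaving out the 3 arrays with high choroid plexus scores gave r = 0.75 (exact permutation p = 0.132). Of the other genes on the array, 2.27% had an r with Tsc22d3 at least this high, and 1.91% had one with Hsd11b1.

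The pair of the glucocorticoid receptor gene Nr3c1 with Tsc22d3 had r = 0.71 (exact permutation p = 0.0489, adjusted p = 0.550) and rho = 0.67 (exact permutation p = 0.0571, adjusted p = 0.456). It rested in part on wild-type replicates 1 and 2, the highest and the lowest for Nr3c1, since r was 0.54 without them (exact permutation p = 0.192). Without the 3 choroid-high arrays it was 0.67 (exact permutation p = 0.264). Other genes reached this r with Nr3c1 in 1.48% of cases and with Tsc22d3 in 2.16%.

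The next 3 pairs did not reach an unadjusted p of 0.05 by Pearson's r. Tsc22d3 and Errfi1 had r = 0.63 (exact permutation p = 0.0685) and rho = 0.56 (p = 0.117, exact permutation), and without wild-type replicates 1 and 3, the ends of the Tsc22d3 range, r was 0.905 (exact permutation p = 0.00833). Zbtb16 and Plin4 had r = 0.64 (exact permutation p = 0.0792) and rho = 0.61 (p = 0.0976, exact permutation), with wild-type replicate 1 highest for both genes, and r was 0.74 without wild-type replicates 1 and 3. Fkbp5 and Zbtb16 had r = 0.40 (exact permutation p = 0.0900) and rho = 0.58 (p = 0.0475, exact permutation), and r was 0.50 without Tg(Dyrk1a) replicates 2 and 4. The adjusted p was 0.550 for all 3 by r and 0.456 by rho.

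A single array decided 1 further call. Hsd11b1 and Errfi1 had r = 0.55 over 10 arrays (exact permutation p = 0.123), but r = 0.93 without wild-type replicate 5 (exact permutation p = 0.00104, adjusted p = 0.0375), the only setting in which any pair passed the adjustment. That array was the highest for Errfi1, at 10.48, and it had high scores for choroid plexus and thalamus markers. The part of either in this result was not tested. Without the choroid-high arrays the r of this pair was 0.89 (exact permutation p = 0.0208, not adjusted). Without Tg(Dyrk1a) replicate 4 and wild-type replicate 2, the lowest of their genotypes for both genes, it was 0.15 (exact permutation p = 0.724).

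By gene, Tsc22d3 had the highest median r with its 8 partners (0.47), followed by Errfi1 (0.46), Fkbp5 (0.40) and Hsd11b1 (0.39). Plin4 had the lowest, at -0.20, with 2 of its 8 r values above 0, and Nr3c2 was next at -0.06. The receptors themselves had r = -0.37 with each other (exact permutation p = 0.191) and rho = -0.58 (p = 0.0765, exact permutation). This value depended on single arrays, with r = -0.79 without Tg(Dyrk1a) replicate 2 and up to -0.19 without another array, r = -0.10 without wild-type replicates 1 and 2, and r = -0.90 without the 3 choroid-high arrays (exact permutation p = 0.0139, not adjusted).

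**Figure D4:**
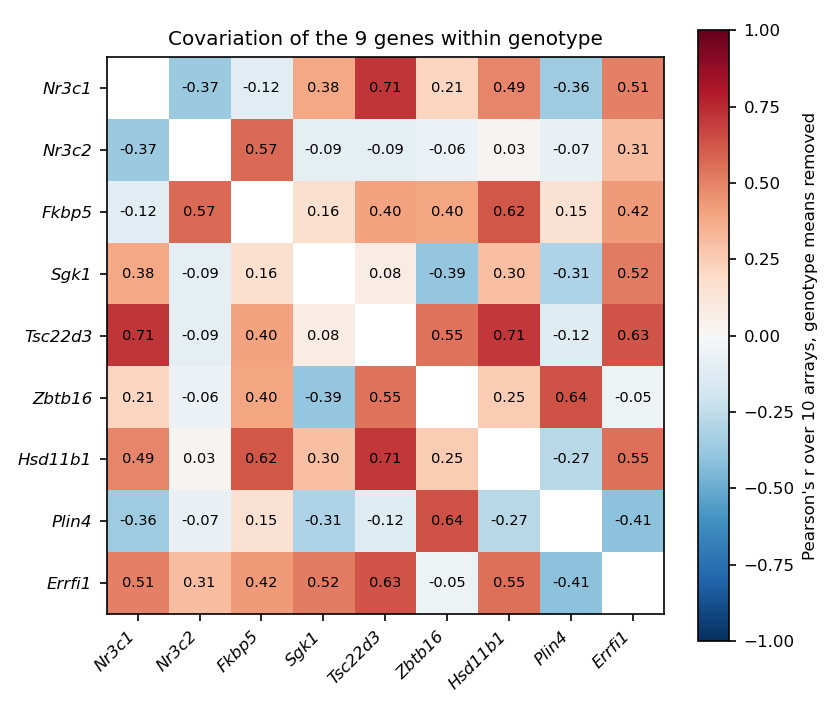
Pearson's r of each pair of the 9 genes over 10 arrays after removal of the genotype means (colour and printed value, from -1 to 1). The highest values, 0.71, join Tsc22d3 with Nr3c1 and with Hsd11b1, and 6 of the 8 r values of Plin4 lie below 0.

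Fkbp5 was then set beside the rest of the pathway. A list of 31 other genes known to be induced by glucocorticoids had 30 measured members, and its score in Tg(Dyrk1a) replicates 1 to 5 was 0.02, 0.08, -0.02, -0.04 and 0.01, against 0.02, -0.01, -0.02, -0.01 and -0.02 in wild-type mice. The same Tg(Dyrk1a) mice that were highest and lowest for Fkbp5, replicates 2 and 4, were highest and lowest for the list. After removal of genotype means, Fkbp5 correlated with this score at r = 0.87 (exact permutation p = 0.0124, adjusted p = 0.406 over 117 relations of 9 genes with 13 scores) and rho = 0.81 (exact permutation p = 0.0350, adjusted p = 0.455). Without Tg(Dyrk1a) replicates 2 and 4, r kept its sign but was 0.64 over the fewer arrays left (exact permutation p = 0.222). Without replicate 2 alone it was 0.74 (exact permutation p = 0.116). Tg(Dyrk1a) replicates 2 and 4 were also the highest and lowest of their genotype for markers of astrocytes (0.06 and -0.03) and microglia (0.13 and -0.09). They did not hold both ends in the remaining lists. Replicate 2 was also highest of its genotype for markers of hippocampal neurons, meninges, oligodendrocytes and choroid plexus. It was not highest for thalamus or for endothelial and mural markers. The part of these scores in the r of Fkbp5 was not tested.

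The other members gave lower r values against the score of glucocorticoid-induced genes, and 3 of them had an unadjusted p under 0.05. Hsd11b1 had r = 0.76 (exact permutation p = 0.0208) and rho = 0.75 (p = 0.0330, exact permutation), Tsc22d3 had r = 0.63 (exact permutation p = 0.0198) and rho = 0.72 (p = 0.0265, exact permutation), and Zbtb16 had r = 0.49 (exact permutation p = 0.0139) and rho = 0.67 (p = 0.0149, exact permutation). Without Tg(Dyrk1a) replicates 2 and 4, r was 0.65 for Hsd11b1, 0.59 for Tsc22d3 and 0.86 for Zbtb16 (exact permutation p = 0.121, 0.139 and 0.00694 in that order). The adjusted p of all 3 was 0.406 by r and 0.455 by rho. The other 5 members did not reach an unadjusted p of 0.05. Errfi1 had r = 0.57 (exact permutation p = 0.0969) and 0.10 without Tg(Dyrk1a) replicates 2 and 4, Nr3c2 had r = 0.44 (p = 0.370, exact permutation), Nr3c1 had r = 0.30 (p = 0.207, exact permutation), Sgk1 had r = 0.19 (p = 0.547, exact permutation) and Plin4 had r = -0.07 (p = 0.850, exact permutation).

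Fkbp5 had a negative r with the score of immediate early genes, which neurons switch on soon after activity. The score of 14 immediate early genes was -0.05, -0.17, 0.00, -0.01 and -0.07 in Tg(Dyrk1a) mice and 0.04, -0.01, -0.01, 0.17 and 0.10 in wild-type mice. Tg(Dyrk1a) replicate 2, the highest for Fkbp5, had the lowest score. The list also leaned with genotype, which the removal of genotype means takes out of r, since 0 of its genes were higher and 14 lower in Tg(Dyrk1a) mice, with a median log2 fold change of -0.10. Of these 14, 5 had an unadjusted p under 0.05 (Fosb, Egr2, Egr1, Arc and Npas4, named after their values were seen), against 4.93% of all transcript clusters. After adjustment 0 passed (limma adjusted p = 0.947 for each of the 5). The 14 genes were measured in the same mice and are not independent of each other, and the list score overlapped between genotypes. The study reported Npas4 as lower in this line, and checked Npas4, Arc, Fosb and Fos in its models by quantitative PCR. Fkbp5 and the list score had r = -0.82 (exact permutation p = 0.00111, adjusted p = 0.130) and rho = -0.81 (exact permutation p = 0.00507, adjusted p = 0.455). Without the 2 farthest arrays, Tg(Dyrk1a) replicate 2 and wild-type replicate 4, r was -0.77 (exact permutation p = 0.0139). Centring each array on its median brought r to -0.51 (exact permutation p = 0.0231). Fkbp5 also had r = 0.81 and rho = 0.83 with a score of 15 markers of hippocampal neurons (exact permutation p = 0.00604 and 0.0256, adjusted p = 0.353 and 0.455), and r = 0.73 without the 2 farthest arrays (exact permutation p = 0.248). Of the 117 relations, 12 had an unadjusted p under 0.05 and 0 passed the adjustment.

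**Figure D5:**
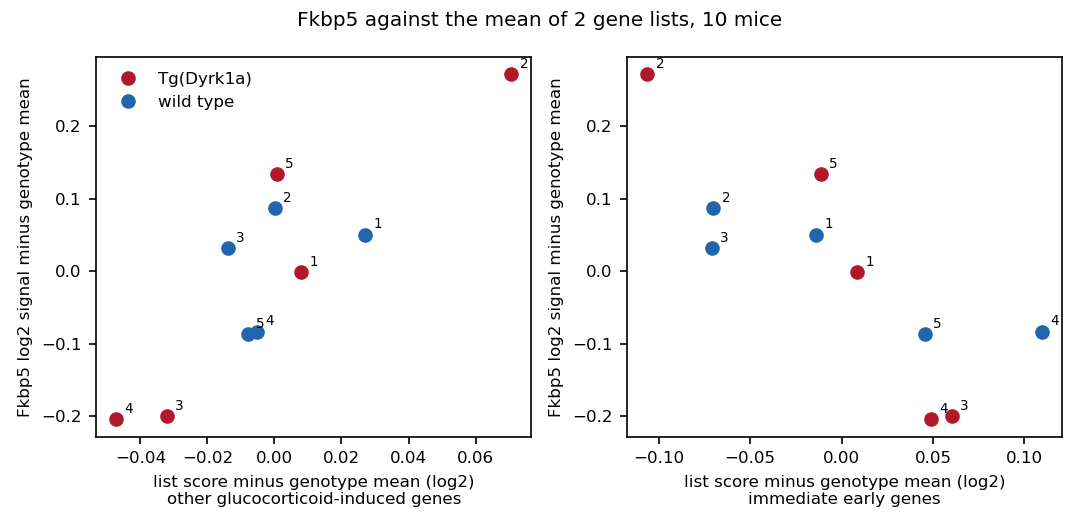
Fkbp5 log2 signal minus the genotype mean (vertical axes) against the score of other glucocorticoid-induced genes (left) and of immediate early genes (right), each minus its genotype mean (horizontal axes, log2). Points are the 10 mice with their replicate number, red for Tg(Dyrk1a) and blue for wild type, with r = 0.87 on the left and r = -0.82 on the right. Tg(Dyrk1a) replicate 2 lies at the upper end of both panels.

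The genes whose pattern over the 10 arrays was most like that of a member were found for the 3 members with the largest SD. For Fkbp5 they were Jdp2, a repressor of the AP-1 family of transcription factors (r = 0.97), Zfp599 (0.94), Cotl1, an actin-binding protein gene (0.94), Anp32a (0.94) and Card6 (0.92). For Zbtb16 they were Zpbp2 (0.95), Hdac8, a histone deacetylase gene (0.95), Pskh1 (0.94), Prr14l (0.93) and Ppp1r12b, a subunit gene of myosin phosphatase (0.93). For Plin4 they were Tsks (0.94), Afp, the gene of alpha-fetoprotein (0.92), Tmem30c (0.92), Mrgprb3 (0.92) and Ifna16 (0.91). None of the 9 members was among these 15 genes. They are the highest of 19937 other genes over 10 arrays, so a high r is part of the choice.

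The lists around the receptors likewise held no gene past the adjusted threshold. Of the 30 other glucocorticoid-induced genes, 21 were higher and 9 lower in Tg(Dyrk1a) mice, with a median log2 fold change of 0.03 against 0.00104 over all transcript clusters. In this list 2 genes had an unadjusted p under 0.05, both higher and 0 lower, where 4.93% of all transcript clusters had such a p. That share is the background for the counts of the next lists too, and 1 gene in a list of this size is near it. Sult1a1, a phenol sulfotransferase gene, had a log2 signal of 7.00, 7.10, 6.90, 6.97 and 7.05 in Tg(Dyrk1a) mice and 6.79, 6.88, 6.83, 6.73 and 6.85 in wild-type mice. Every Tg(Dyrk1a) value lay above every wild-type value, and the difference was 0.19 ± 0.04 (limma adjusted p = 0.760, exact permutation p = 0.00794, the smallest the design allows). Such a separation was found for 0.807% of all transcript clusters. Gpd1, which encodes a glycerol-3-phosphate dehydrogenase, averaged 10.74 ± 0.06 in Tg(Dyrk1a) mice and 10.63 ± 0.06 in wild-type mice (SD, n = 5 each; exact permutation p = 0.0476, limma adjusted p = 0.947).

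The chaperones that hold the receptors ready for hormone had 13 of 14 genes measured, of which 8 were higher and 5 lower, with 1 higher and 0 lower at an unadjusted p under 0.05. That gene was Bag1, a cochaperone of Hsp70, at 0.09 ± 0.04 (exact permutation p = 0.0397, limma adjusted p = 0.947). Fkbp4, whose product FKBP52 competes with FKBP51 on the receptor complex, was at -0.06 ± 0.03 (exact permutation p = 0.0556, limma adjusted p = 0.947).

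Of the receptor coregulators 16 of 18 were measured, 5 higher and 11 lower, with a median of -0.02 and 1 higher and 2 lower at an unadjusted p under 0.05. The proline-rich coactivator gene Pnrc1 had a log2 signal of 9.90, 9.85, 9.86, 9.83 and 9.82 in Tg(Dyrk1a) mice and 9.96, 9.95, 9.96, 9.91 and 9.92 in wild-type mice. Its groups did not overlap, with a difference of -0.09 ± 0.03 (exact permutation p = 0.00794, limma adjusted p = 0.947). Groups were apart for 0.807% of all transcript clusters, and Pnrc1 was named for its small p within the list. The related gene Pnrc2 averaged 10.26 ± 0.08 in Tg(Dyrk1a) mice and 10.40 ± 0.06 in wild-type mice (SD, n = 5 each), and its groups overlapped (exact permutation p = 0.0317, limma adjusted p = 0.947). The gene that was higher, named after its value was seen, was the histone deacetylase gene Hdac3 at 0.09 ± 0.03 (limma adjusted p = 0.947).

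Among genes of steroid metabolism and the stress axis 21 of 22 were measured, 10 higher and 11 lower, with 1 higher and 0 lower at an unadjusted p under 0.05. Crhbp, which encodes a binding protein of corticotropin-releasing hormone, was at 0.12 ± 0.05 and the hormone's receptor gene Crhr1 at -0.13 ± 0.06 (exact permutation p = 0.0635 and 0.0794, limma adjusted p = 0.947 for both). Of 14 measured clock genes, which follow the daily rhythm, 4 were higher and 10 lower in Tg(Dyrk1a) mice, with a median of -0.03. The 2 of them with an unadjusted p under 0.05, named after their values were seen, were Arntl, which drives the clock, at 0.11 ± 0.04 and Nr1d2, a repressor in the same loop, at -0.15 ± 0.03 (limma adjusted p = 0.947 and 0.707).

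In 4 lists of cell type markers most genes lay on 1 side by genotype, and the part of these markers in the values above was not tested. Of these lists, only the endothelial and mural one had scores that did not overlap between genotypes. Of 16 markers of the meninges, 15 were higher in Tg(Dyrk1a) mice, with scores from -0.09 to 0.20 in Tg(Dyrk1a) mice and from -0.19 to 0.08 in wild-type mice. Of 19 endothelial and mural markers 16 were higher, with scores from 0.03 to 0.07 in Tg(Dyrk1a) mice and from -0.14 to -0.01 in wild-type mice. Of 14 thalamus markers 2 were higher and 12 lower, with a median of -0.11 and scores from -0.08 to 0.00 in Tg(Dyrk1a) mice and from -0.11 to 0.38 in wild-type mice. The 0.38 was that of wild-type replicate 5, and the other wild-type mice lay between -0.11 and 0.03, on both sides of the Tg(Dyrk1a) range. Of 15 markers of hippocampal neurons, the list whose score ran with Fkbp5, 13 were higher and 2 lower, with a median of 0.05 and scores from -0.04 to 0.13 in Tg(Dyrk1a) mice and from -0.06 to 0.06 in wild-type mice. At an unadjusted p under 0.05 there were 4 meninges markers and 6 endothelial and mural markers, all higher. There were also 1 higher and 1 lower thalamus marker and 1 higher marker of hippocampal neurons. The share over all transcript clusters was 4.93%. None of the genes of these 4 lists passed the adjustment. When the scores of choroid plexus, meninges and thalamus entered the fit as covariates, 0 of the 9 genes passed either. The endothelial and mural score, whose groups did not overlap, was not among these covariates.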

How the data were processed

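Expression was measured on Affymetrix whole-transcript mouse gene arrays in the hippocampus of 5 Tg(Dyrk1a) and 5 wild-type mice. The log2 values deposited by the authors came from RMA (robust multi-array average), which corrects background, normalizes the probes and summarises them per transcript cluster. RMA, limma and build mm10 are named in the submitters' processing notes. Which arrays were normalized together is not given in the sources used here. RMA compresses fold changes of dim transcript clusters.

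The table held 35556 rows, of which 23410 were annotated, 21789 with 1 symbol and 1621 with several. Rows with several symbols were tested and not named, which left out Cdkn1a, so that covariation was tested over 36 pairs and not over the 45 that 10 genes would give. Gene positions came from RefSeq GRCm38.p6.

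The genotype comparison used lmFit and eBayes of limma 3.58.1 (R 4.3.3) without covariates, with Benjamini-Hochberg adjustment over 23410 transcript clusters. Each fold change is Tg(Dyrk1a) relative to wild type, with its limma standard error and 95% interval. Single genes also had a two-sided exact permutation test over all 252 assignments. FCROS, the rank method of the study, was rewritten from its description with 25% of ranks trimmed at each end. Correlations were computed in Python 3.11.15 with numpy 2.4.6, as Pearson's r and Spearman's rho after removal of genotype means. A list score is the mean over genes of the log2 value minus that gene's mean over the 10 arrays. The choroid plexus score was left out of the correlations because its arrays fall into separate clusters.

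The genes and pairs named by rule are all measured members, the 2 genes of smallest limma p in each of 4 pathway lists, the 5 pairs of smallest p, the 5 genes most like each of the 3 most variable members, and Dyrk1a as a check. Outside this rule, other list genes were named after their values were seen, as marked. The pairs of Hsd11b1 with Errfi1 and of Nr3c1 with Nr3c2 also lie outside it. The members and lists were chosen with earlier results of these data known. The alternatives were other normalizations, filters, variance models, weights per array, a block for the replicate number, marker scores as covariates and leaving out arrays. Scripts were tested on simulated data.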

Additional observations from a re-analysis of the deposited data

Results flagged for a closer look

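A single sample lay far from the others of its group. Zbtb16 had a log2 signal of 10.88 in Tg(Dyrk1a) replicate 3, the lowest of its genotype, while the nearest of the other 4 mice was at 11.01, and the gap was 0.724 of the range of the group. Of the 18 groups examined (9 genes in 2 genotypes) 1 was picked out in this way, and chance picks out about 1 group in 20.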

How the results depend on the processing

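The number of the 9 genes past the adjusted threshold was 0 under all 20 alternatives to the comparison of genotypes. At an unadjusted p under 0.05 it was 1 without wild-type replicate 1 (Zbtb16) and 1 without wild-type replicate 2 (Nr3c1), and 0 otherwise. Directions held under every alternative for 6 genes. When the scores of choroid plexus, meninges and thalamus entered as covariates, the log2 fold change of Hsd11b1 was -0.0415 and that of Plin4 was 0.133. Leaving out each array in turn moved Plin4 between -0.098 and 0.0224 and Errfi1 between -0.0476 and 0.0005. Without the 3 choroid-high arrays the estimates lay nearer 0 for every gene but Plin4, which was at -0.0676. They were 0.0522 for Fkbp5, -0.0182 for Sgk1, 0.0094 for Nr3c2 and -0.0001 for Errfi1. The number of all transcript clusters past the threshold, 2 at first, was 1 after median centring, with all rows tested, with a variance trend, and without the 3 choroid-high arrays. It was 5 with array weights, 0 with marker scores as covariates and 1 to 2 when each array was left out. The cause was not tested.

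With the replicate number as a block, 0 of the 9 genes and 1 transcript cluster passed. The numbers share no stated litter or day, and same-numbered mice correlated at r = -0.285 to 0.276, so they were not taken as pairs. Of the 10 arrays, 2 correlated best with the array of their own number in the other genotype.

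Pairs past the adjusted threshold numbered 0 to 1 when each array was left out and 0 under every other alternative. Pairs at an unadjusted p under 0.05 numbered 0 to 7, with 0 after quantile normalization and 7 after median centring. Of the 117 relations of members with list scores, the 6 with the smallest p were recomputed under 16 alternatives each, chosen after seeing the data. These 6 kept their sign, and for 5 of them the unadjusted p no longer lay below 0.05 in 3 to 5 alternatives, the exception being Fkbp5 with immediate early genes (r = -0.886 to -0.508). Elsewhere signs could change, as for Errfi1 with thalamus markers, at r = 0.65 over all arrays and -0.10 without wild-type replicates 2 and 5. The number of arrays limits all of these values, and a transcript cluster near background compresses a change.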
